A study of Homo sapiens with 3 samples.

Results

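The RNA of 8 human genes whose proteins are reported substrates or partners of the citrullinating enzyme PADI4 was followed in MCF10Ca1h, a human breast cancer cell line. The genes were HDAC1, HDAC2, DNMT3A, ING4, ELK1, E2F1, GSK3B and NPM1. They were taken by symbol, not by a cutoff on measured values, but with earlier results of these data known. All 8 were found among the 56632 gene rows of each deposited table. RNA sequencing gave 1 library for each of 3 groups. The GSK484 library came from cells given the PADI4 inhibitor GSK484 for 72 h. The CON library came from cells that received the control compound over the same 72 h, named GSK107 in the treatment label and GSK106 in the name of the deposited table. The NT library came from untreated cells of the same line, with no time given. All groups shared the line and a medium with horse serum, and the labels give no dose.

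PADI4 converts arginine residues of proteins into citrulline, which removes their positive charge. Histone tails are its best known targets, and other nuclear proteins are targets too. HDAC1 and HDAC2 are histone deacetylases reported to act with PADI4 at promoters, and DNMT3A, ING4, ELK1, E2F1, GSK3B and NPM1 are reported to be citrullinated. Citrulline on a protein does not appear in RNA-seq, so the values below are amounts of RNA from the genes, not of modified protein.

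Total expected counts were 77220120 (GSK484), 92980847 (CON) and 70555229 (NT). Each group had 1 library, which allows no test of a condition. All intervals given are for counting error alone. Levels within a gene are given in CPM, counts scaled to the library's total after adjustment by its TMM normalization factor. All 9 epithelial markers examined, keratins and EPCAM among them, had at least 1 CPM. CDKN2A and CDKN2B, which are deleted in the MCF10A family, had counts of 0 in all 3 libraries. Of 12 markers of other cell types found, CD14, COL1A1 and CDH5 reached 1 CPM in any library, and 6 (PTPRC, CD3E, MPO, ELANE, COL3A1 and DCN) had counts of 0. CD14 was at 6.26 CPM (GSK484), 9.15 (CON) and 7.83 (NT), and CDH5 at 0.94 CPM (GSK484), 1.57 (CON) and 0.97 (NT). COL1A1 was at 7.56 CPM (GSK484), 6.75 (CON) and 5.88 (NT). The part of these markers in the results was not tested. The share of counts on mitochondrially encoded protein-coding genes was 3.93% (GSK484), 5.22% (CON) and 4.68% (NT).

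The promoter of E2F1 is shown because E2F factors are known to act on it and because E2F target genes were measured beside it. The promoter of ING4 is shown because it alone among the 8 held the searched ETS letters, which ELK1 and other ETS factors can bind. The sequences are the 120 bases before the annotated start from RefSeq (GRCh38.p14), 5′ to 3′ on the gene's strand, with the motif in capitals. They lie at chr20:33686386-33686505 on the minus strand for E2F1 and at chr12:6663120-6663239 on the minus strand for ING4.
E2F1: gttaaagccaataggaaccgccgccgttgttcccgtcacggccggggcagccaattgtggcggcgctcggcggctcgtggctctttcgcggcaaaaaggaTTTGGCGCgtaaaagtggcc
ING4: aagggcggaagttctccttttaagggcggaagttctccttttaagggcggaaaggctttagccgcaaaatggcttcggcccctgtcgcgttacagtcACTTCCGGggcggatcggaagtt

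The E2F search used TTTGGCGC and TTTCGCGC on both strands of the 250 bases before each start. Of 27305 annotated promoters, 0.996% held a match, and of 24 E2F target genes with a promoter entry 4 did. The ETS letters CCGGAAGT, on both strands, were in 3.64% of promoters. A match describes letters in a window and is not a measured binding site.

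The 8 genes covered a wide range of RNA levels, and their order was the same in all 3 libraries. Levels between genes were compared as TPM, which corrects counts for a gene's effective length. NPM1, a nucleolar chaperone of ribosome assembly, had 4909.6 TPM (GSK484), 4383 (CON) and 4848 (NT). It stood above 99.8% of the 11777 measured protein-coding genes in CON. HDAC2 followed with 118.7 TPM (GSK484), 95.9 (CON) and 121.6 (NT). HDAC1 had 67.9, 68.0 and 72.5 TPM in GSK484, CON and NT. The other 5 genes lay lower. GSK3B had 29.7 to 31.0 TPM over the libraries, E2F1 19.7 to 20.3, ELK1 16.7 to 18.3, ING4 8.33 to 9.63 and DNMT3A 2.08 to 2.50. No neighbours in this order had overlapping ranges over the 3 libraries. DNMT3A, at the low end, stood above 14.3% of measured protein-coding genes in GSK484.

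**Figure D1:**
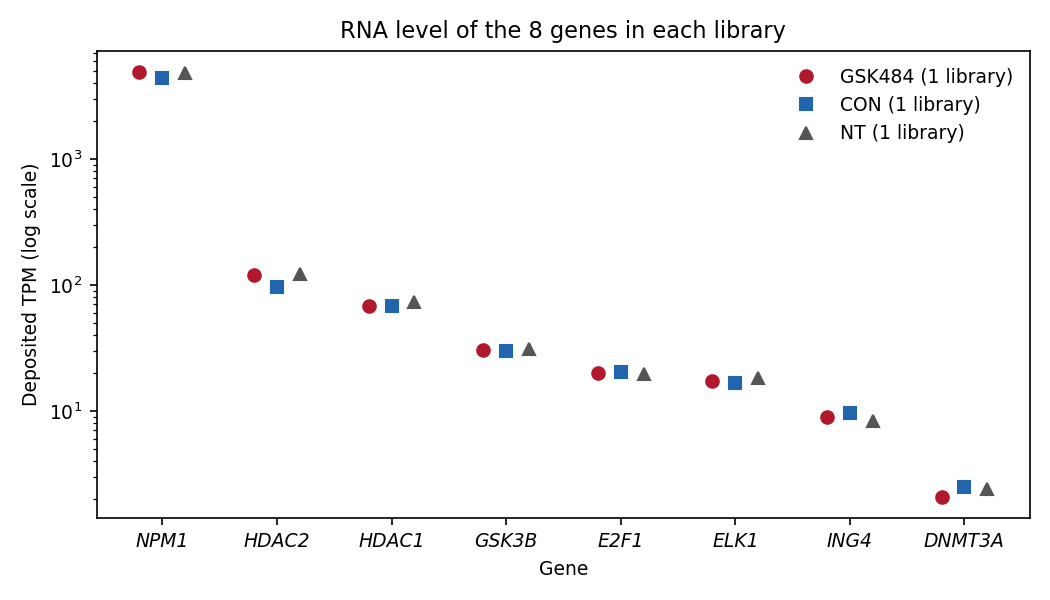
Deposited TPM (log scale) of the 8 genes in the GSK484, CON and NT libraries, 1 point per library, with genes ordered by their mean. The order is the same in each library, from NPM1 at 4383 TPM or more to DNMT3A at 2.50 TPM or less.

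No gene of the 8 differed by 2-fold between any libraries. In GSK484 against CON, 3 of the 8 genes were higher beyond counting error (HDAC2, GSK3B and NPM1), and 5 were lower (HDAC1, DNMT3A, ING4, ELK1 and E2F1). Of 13200 measured genes, 26.9% were higher and 27.4% lower by the same criterion, 54.3% in all. The median log2 fold of the 8 was -0.13, against -0.01 over all measured genes, and their median absolute log2 fold was 0.16, against 0.11. The median of the 8 was -0.08 with the trend on GC content and length removed (all genes 0.02), and 0.02 by TPM (all genes 0.10). In these bulk samples fewer cells of a kind and less RNA per cell cannot be told apart. The rule of size asked for a fold of at least 2, a counting interval that excludes no difference and at least 1 CPM. It was met by 0 of the 8 genes, against 0.462% of measured genes (0.189% higher and 0.273% lower). In GSK484 against NT, 2 genes were higher and 3 lower beyond counting error, where 27.1% and 29.8% of 13208 measured genes were (56.8% in all). The median of the 8 was 0.01, and none passed the rule of size, against 0.538% of measured genes (0.257% higher and 0.28% lower). In CON against NT, 4 were higher and 2 lower beyond counting error, where 35.3% and 29.6% of 13219 measured genes were (64.9% in all). The median was 0.02, and again none passed the rule of size, against 1.67% of measured genes (0.325% higher and 1.35% lower). These comparisons share libraries in pairs, so anything particular to 1 library enters both comparisons that use it.

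**Figure D2:**
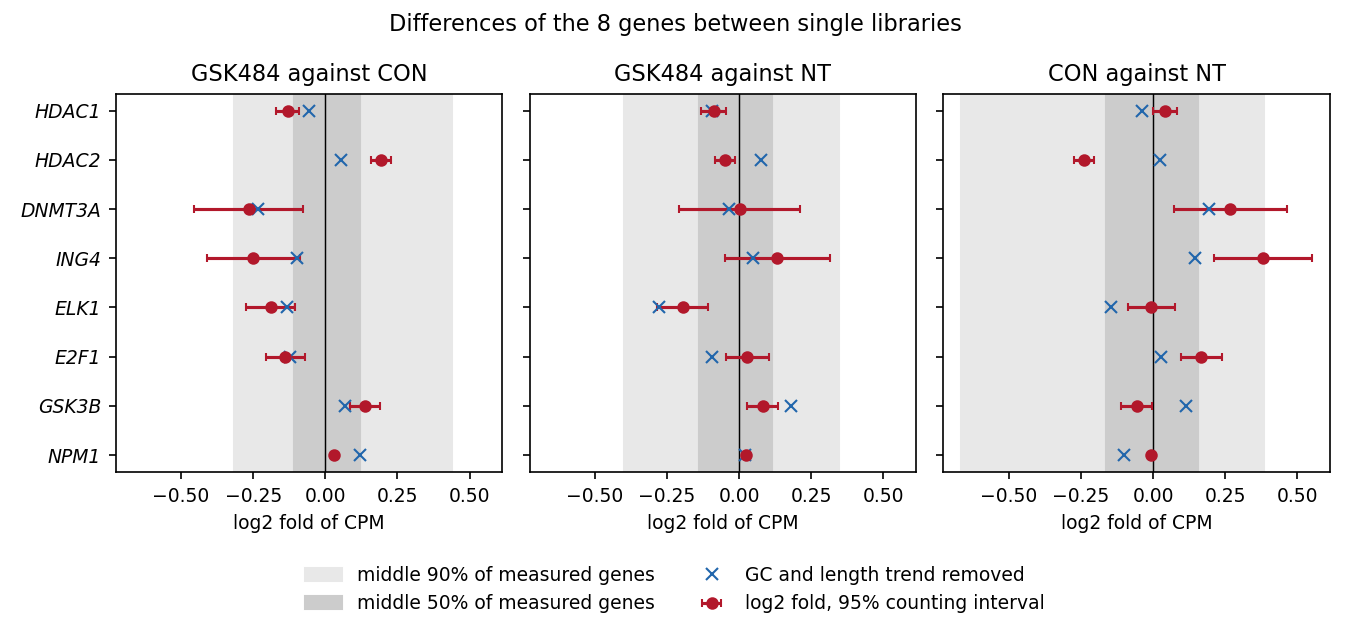
log2 folds of CPM for the 8 genes in each comparison, with 95% counting intervals (red) and the value after removal of the trend with GC content and length (blue crosses). Light and dark grey bands hold the middle 90% and 50% of measured genes, and all 8 red points lie within the light band in every panel.

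Library composition differed with GC content, and the 8 genes span that range. By the longest annotated transcript, HDAC2 had 38.2% GC and fell in the lowest sixth of measured genes, while E2F1 had 62.5% and fell in the highest. The lowest sixth had a median log2 fold of 0.18 in GSK484 against CON and of -0.35 in CON against NT. The highest sixth had -0.02 and 0.15 in the same comparisons. Each gene is therefore given below also with a smooth trend on GC content and effective length removed.

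**Figure D3:**
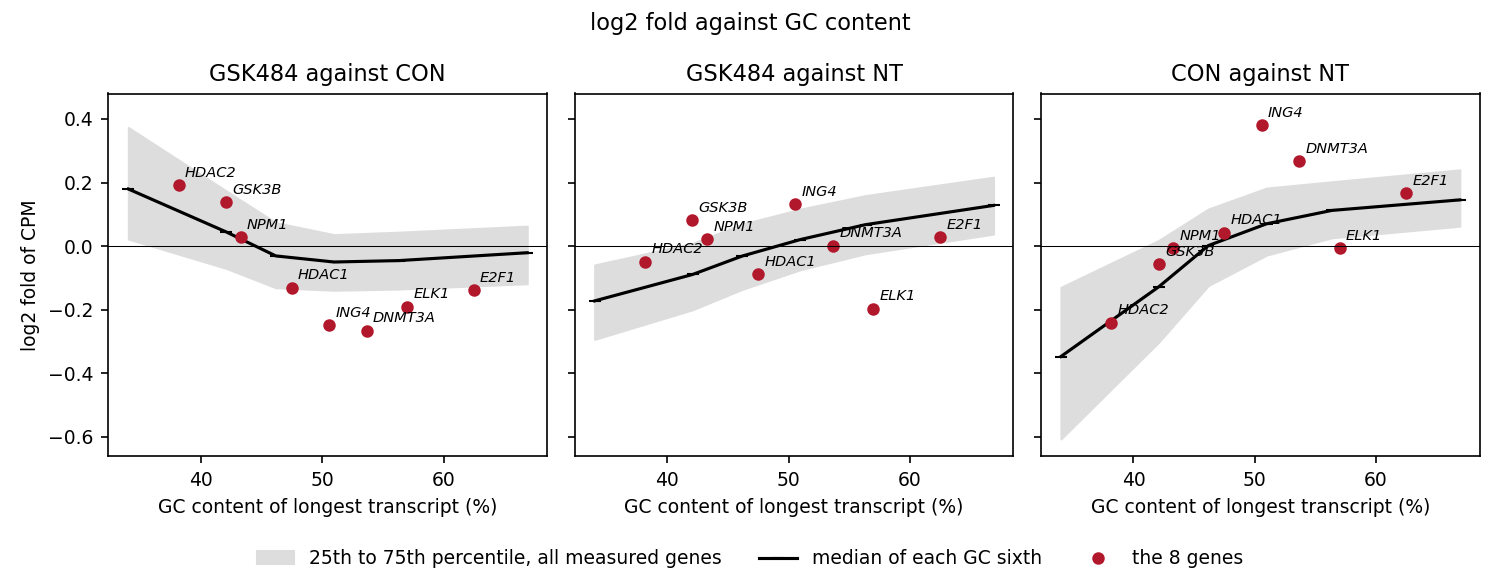
log2 fold of CPM against GC content of the longest transcript, in each comparison. The black line joins the medians of 6 equal groups of measured genes by GC content, grey marks their 25th to 75th percentile, and red points are the 8 genes. HDAC2 lies near the line in CON against NT, where ING4 and DNMT3A lie above it.

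HDAC1 and HDAC2 encode class I deacetylases that sit together in the NuRD, SIN3 and CoREST corepressor complexes. HDAC2 RNA was at 175 CPM (GSK484), 153 (CON) and 181 (NT), so CON was the low library. Its log2 fold was 0.19 in GSK484 against CON (interval 0.16 to 0.23), -0.05 in GSK484 against NT (interval -0.08 to -0.01) and -0.24 in CON against NT (interval -0.28 to -0.21). With the GC and length trend removed these values were 0.05, 0.08 and 0.02. HDAC1 was at 109 CPM (GSK484), 119.6 (CON) and 116 (NT). It was lower in GSK484 than in CON (log2 fold -0.13, interval -0.17 to -0.09) and than in NT (-0.09, interval -0.13 to -0.04). After removal of the trend HDAC1 was at -0.06 and -0.09, and by TPM its difference from CON was -0.00.

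The balance of both deacetylases can be read within a library. HDAC2 had 1.60 counts for each HDAC1 count in GSK484, 1.28 in CON and 1.55 in NT. The ratio in GSK484 exceeded that in CON by 0.32 on the log2 scale (interval 0.27 to 0.38) and differed from NT by 0.04 (interval -0.02 to 0.10). The ratio is free of scaling but not of the GC trend. In CON against NT the ratio differed by -0.28. With the trend removed HDAC2 was at 0.02 and HDAC1 at -0.04, so the low HDAC2 share of CON was not seen in that comparison. In GSK484 against CON, HDAC2 was at 0.05 and HDAC1 at -0.06 with the trend removed, still in the direction of the ratio. HDAC3, the deacetylase of the NCOR complexes, was at 94.7 TPM (GSK484), 89.2 (CON) and 85.2 (NT), with divided reads. HDAC8 was at 10.2 to 11.01 TPM. An annotated antisense gene at HDAC2, chosen after its values were seen, was sparse. HDAC2-AS2 had 11 counts (GSK484), 28 (CON) and 10 (NT). It was highest in CON, where HDAC2 was lowest in CPM. How the authors' counting treated strand is not given in the sources used here, so reads of the pair cannot be told apart. Neither gene had divided reads, and HDAC2 had 13602 counts (GSK484), 13937 (CON) and 12863 (NT).

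In GSK484 against CON, 26.9% of all measured genes were higher and 27.4% lower beyond counting error. Among 24 class I deacetylase and corepressor genes, all measured, 9 were higher and 2 lower by this criterion in that comparison (median 0.03). TBL1XR1, a subunit of the NCOR complexes, had the highest log2 fold, 0.33, and -0.01 once the trend was removed. Its value was -0.23 in GSK484 against NT and -0.56 in CON against NT. After HDAC1, the lowest was SAP30, a SIN3 subunit, at -0.09, within counting error, and 0.06 with the trend removed. Against NT, 12 were higher and 5 lower (median 0.09), where 27.1% and 29.8% of all measured genes were. CON against NT gave 13 higher and 4 lower, where 35.3% and 29.6% of all measured genes were. The list median was 0.07, or 0.02 with the trend removed.

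DNMT3A, a de novo DNA methyltransferase, had few counts in all 3 libraries. It was at 5.03 CPM (GSK484), 6.05 (CON) and 5.02 (NT), from 392, 552 and 358 counts. In CPM, CON was the high library, and GSK484 and NT lay together. The log2 fold was -0.27 in GSK484 against CON (interval -0.46 to -0.08) and 0.27 in CON against NT (interval 0.07 to 0.46). In GSK484 against NT it was 0.00 (interval -0.21 to 0.21). Of measured genes, 18.9% had a larger absolute log2 fold in GSK484 against CON. Net of the trend the first values were -0.23 and 0.20. By TPM GSK484 was the low library, at -0.25 against CON and -0.20 against NT, and CON exceeded NT by 0.06. The effective length of DNMT3A was 2833 bases (GSK484), 2624 (CON) and 2459 (NT).

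DNMT1, the maintenance methyltransferase, was the main DNA methyltransferase RNA, at 92.6 TPM (GSK484), 93.3 (CON) and 88.7 (NT). DNMT3B, the other de novo enzyme, was at 0.64 TPM (GSK484), 0.48 (CON) and 0.75 (NT). It was lowest in CON, where DNMT3A was highest. There were 2.39 DNMT3A counts for each DNMT3B count in GSK484, 3.58 in CON and 2.01 in NT. The log2 ratio of these ratios was -0.58 in GSK484 against CON (interval -0.95 to -0.22), and against NT the ratio was 0.25 (interval -0.12 to 0.62). DNMT3L, a cofactor of germ cells, had counts of 0, which allows up to 3 counts, or 0.0385 CPM in GSK484. Of 8 measured DNA methylation genes, 1 was higher and 3 lower beyond counting error in GSK484 against CON. All measured genes gave 26.9% higher and 27.4% lower. The list median was -0.03, or 0.02 with the trend removed. TET2, a methylcytosine dioxygenase, was higher at 0.35 against CON (0.22 with the trend removed), but at -0.57 against NT, and CON was at -0.92 against NT, so CON was its low library.

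ING4 encodes a plant homeodomain finger protein that brings the HBO1 acetyltransferase to methylated histone tails. It had 7.04 CPM (GSK484), 8.37 (CON) and 6.43 (NT), from 549, 764 and 458 counts. CON was again the high library. In CPM, ING4 had the widest range of the 8 genes, 1.30-fold between CON and NT. By TPM its log2 difference between CON and NT was 0.21, smaller in size than that of HDAC2 (-0.34). The log2 fold was -0.25 in GSK484 against CON (interval -0.41 to -0.09), 0.13 in GSK484 against NT (interval -0.05 to 0.31) and 0.38 in CON against NT (interval 0.21 to 0.55). Even so, 17.7% of measured genes had a larger absolute log2 fold in CON against NT. With the trend removed the 3 values of ING4 were -0.10, 0.05 and 0.15, and its range was no longer the widest (ELK1 was at -0.28 in GSK484 against NT).

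Genes with the pattern most like that of ING4 were sought among 8656 protein-coding genes of at least 10 CPM. The measure was the distance between log2 CPM values centred over the 3 libraries, and 39 genes lay within 0.05. The nearest were SMIM11, C15orf61, ATP5ME, ATP6V1G2-DDX39B and RPS28, at distances of 0.0032 to 0.0094. SMIM11 had 15.4 CPM (GSK484), 18.4 (CON) and 14.1 (NT). The 39 genes had a median GC content of 58.3%, against 48.6% for all those searched. ING4 itself had 50.6%. The counting intervals of its log2 folds were far wider than 0.05, so which genes lay nearest is uncertain. Likeness over 3 libraries describes these libraries alone.

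In CPM, ING1, ING2 and ING5 had log2 folds of the same sign as ING4 in each comparison. Those of ING3 had the opposite sign. In GSK484 against NT all but ING3 were within counting error. ING5, which also works with HBO1, was at 11.96 TPM (GSK484), 10.1 (CON) and 10.05 (NT), with divided reads. ING3, a subunit of the TIP60 complex, had a log2 fold of 0.24 in GSK484 against CON and of -0.50 in CON against NT, or 0.07 and -0.20 with the trend removed. ING1 (-0.12) and ING2 (-0.10), both subunits of SIN3 complexes, and ING5 (-0.05) lay below 0 in GSK484 against CON, ING2 and ING5 within counting error. Net of the trend they were at -0.04 (ING1), 0.07 (ING2) and -0.00 (ING5). In CON against NT they were at 0.18 (ING1), 0.12 (ING2, within counting error) and 0.12 (ING5). With the trend removed these were 0.08, -0.11 and 0.02. In GSK484 against CON, 3 of 13 ING and HBO1 genes were higher and 4 lower beyond counting error. All measured genes gave 26.9% higher and 27.4% lower. The list median in that comparison was -0.03, or 0.03 with the trend removed. The HBO1 catalytic gene KAT7 had -0.14 in GSK484 against CON, and JADE1, a scaffold of that complex, had 0.28.

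ELK1 encodes an ETS transcription factor that binds with SRF at serum response elements. It was at 26.2 CPM (GSK484), 29.9 (CON) and 30.1 (NT). GSK484 was the low library, and CON and NT differed by less than their counting error. The log2 fold was -0.19 in GSK484 against CON (interval -0.27 to -0.11), -0.20 in GSK484 against NT (interval -0.28 to -0.11) and -0.01 in CON against NT (interval -0.09 to 0.08). After removal of the trend these values were -0.13, -0.28 and -0.14. Of measured genes, 29.8% had a larger absolute log2 fold in GSK484 against CON and 31.3% in GSK484 against NT. Per length ELK1 was lowest in CON instead, at 17.25 TPM (GSK484), 16.7 (CON) and 18.3 (NT). Its effective length was 1781 bases (GSK484), 1945 (CON) and 1928 (NT). On the TPM scale ELK1 in GSK484 against CON was at 0.05, against a median of 0.10 over all measured genes.

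ELK1 was the most abundant of the ternary complex factor RNAs per length. ELK3 had 10.5 TPM (GSK484), 8.58 (CON) and 10.95 (NT), and ELK4 had 5.39, 4.52 and 6.36 TPM in GSK484, CON and NT. Both were lowest in CON, as ELK1 was per length but not in CPM. Their log2 folds in GSK484 against CON were 0.19 for each, or 0.10 for ELK3 and -0.07 for ELK4 with the trend removed.

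Of 18 measured genes of ternary complex factors and SRF targets, 4 were higher and 9 lower beyond counting error in GSK484 against CON. All measured genes gave 26.9% higher and 27.4% lower. The list median was -0.07. FOS, a target of ELK1 for which citrullination of ELK1 has been studied, was at 156 CPM (GSK484), 200.3 (CON) and 204 (NT). In CPM FOS was, like ELK1, lowest in GSK484. Its log2 folds were -0.36 against CON (interval -0.40 to -0.33) and -0.39 against NT (interval -0.43 to -0.36). By TPM FOS was again lowest in GSK484, while ELK1 was lowest in CON. DUSP1, a MAP kinase phosphatase gene, had -0.48 against CON and -0.53 against NT. EGR2 was the 1 gene of the list past the rule of size, in GSK484 against NT (log2 fold -1.16, interval -1.79 to -0.58), from 36 counts in GSK484 and 74 in NT. FOSB was, like FOS, lowest in GSK484, at -0.31 against CON and -0.33 against NT. EGR1 was at 233 CPM (GSK484), 246 (CON) and 230.3 (NT). In GSK484 it was lower than in CON (log2 fold -0.08, interval -0.11 to -0.05). It did not differ from NT beyond counting error (0.02, interval -0.01 to 0.05). SRFBP1, an SRF-binding protein gene with divided reads, was highest in GSK484 against CON at 0.48, or 0.30 with the trend removed. In GSK484 against NT it was at -0.17, and in CON against NT at -0.66, so CON was its low library. EGR1 and FOSB were named after their values were seen. In GSK484 against NT the list had 6 higher and 11 lower of 19 measured, with a median of -0.06. All measured genes gave 27.1% and 29.8%. CON against NT gave 8 higher and 5 lower on the list (median -0.02), where 35.3% and 29.6% of all measured genes were.

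E2F1 encodes an activating factor of S phase genes. It was at 39.6 CPM (GSK484), 43.6 (CON) and 38.8 (NT). CON was the high library, and GSK484 and NT differed by less than their counting error (log2 fold 0.03, interval -0.05 to 0.10). GSK484 against CON gave -0.14 (interval -0.21 to -0.07) and CON against NT 0.17 (interval 0.10 to 0.24). Net of the trend the values were -0.12 against CON, -0.09 for GSK484 against NT and 0.03 for CON against NT. TPM differed less, at 19.9 (GSK484), 20.3 (CON) and 19.7 (NT).

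E2F4, which acts with the pocket proteins in repression, was the most abundant E2F RNA, at 84.95 TPM (GSK484), 81.7 (CON) and 83.55 (NT). E2F8, an atypical repressor and itself an E2F target, was the family member lowest in GSK484. It had 3.44 CPM (GSK484), 4.83 (CON) and 5.57 (NT). Its log2 fold was -0.49 against CON (interval -0.72 to -0.27) and -0.70 against NT (interval -0.93 to -0.47), and -0.47 and -0.65 with the trend removed. RBL1, a pocket protein gene with divided reads, was highest in GSK484 against CON at 0.28 (0.09 with the trend removed), and RB1, the retinoblastoma gene, had 0.09. RB1 was at -0.15 with the trend removed, and at -0.47 in GSK484 against NT. RBL1 was at -0.13 in GSK484 against NT and at -0.41 in CON against NT. In GSK484 against CON, 26.9% of all measured genes were higher and 27.4% lower beyond counting error. Of 13 genes of the E2F and RB family, 2 were higher and 5 lower in that comparison (median -0.01). Against NT 0 were higher and 8 lower (median -0.13, or -0.08 with the trend removed), where 27.1% and 29.8% of all measured genes were.

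The list of E2F target genes shares E2F7 and E2F8 with the family list, and 29 were measured. In GSK484 against CON, 7 were higher and 11 lower beyond counting error (median -0.02), where 26.9% and 27.4% of all measured genes were. RRM2, a ribonucleotide reductase subunit gene, was at 381 CPM (GSK484), 426 (CON) and 431 (NT), with a log2 fold of -0.16 against CON, or -0.10 with the trend removed. BRCA1 was highest at 0.44 (interval 0.35 to 0.53), but lay below NT at -0.38, and CON lay below NT at -0.82. Its expression was thus lowest in CON, also with the trend removed (-0.61 for CON against NT). POLA1, a DNA polymerase alpha gene, was at 0.32 in GSK484 against CON but at -0.09 in GSK484 against NT. CON was its low library, at -0.41 against NT. In GSK484 against NT, 8 target genes were higher and 15 lower (median -0.04), where 27.1% and 29.8% of all measured genes were. In CON against NT, 11 target genes were higher and 13 lower (median -0.01), where 35.3% and 29.6% of all measured genes were.

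GSK3B encodes a serine/threonine kinase that marks beta-catenin for destruction, and its N-terminal arginines are reported sites of citrullination by PADI4. It was at 77.3 CPM (GSK484), 70.3 (CON) and 73.1 (NT). GSK484 was the high library and CON the low one. The log2 fold was 0.14 in GSK484 against CON (interval 0.09 to 0.19), 0.08 in GSK484 against NT (interval 0.03 to 0.13) and -0.06 in CON against NT (interval -0.11 to -0.00). With the trend removed they were 0.07, 0.18 and 0.11. Per length GSK3B was at 30.65 TPM (GSK484), 29.7 (CON) and 31.0 (NT), with effective lengths of 2953, 2561 and 2767 bases. A divergent noncoding gene beside it, GSK3B-DT, chosen after its values were seen, had 16 counts (GSK484), 45 (CON) and 16 (NT).

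GSK3A, the other GSK3 kinase, exceeded GSK3B per length, at 84.6 TPM (GSK484), 81.4 (CON) and 77.1 (NT), with divided reads. GSK3B had 0.591 counts for each GSK3A count (GSK484), against 0.555 (CON) and 0.619 (NT). Of 19 measured genes of the GSK3 and beta-catenin destruction complex list, 9 were higher and 5 lower beyond counting error in GSK484 against CON. All measured genes gave 26.9% higher and 27.4% lower. The list median was 0.04, or -0.00 with the trend removed. APC, the scaffold of the destruction complex, stood apart. It was at 11.7 CPM (GSK484), 6.90 (CON) and 18.0 (NT). CON was the low library and NT the high one. Its log2 fold was 0.76 in GSK484 against CON, -0.62 in GSK484 against NT and -1.38 in CON against NT (interval -1.52 to -1.25), the last past the rule of size. After removal of the trend that last value was -0.95, short of the rule. FBXW7, a ubiquitin ligase gene for GSK3-phosphorylated proteins, was at 0.35 in GSK484 against CON. In GSK484 against NT it was within counting error (-0.05), and CON was its low library (-0.40 against NT). In GSK484 against CON, DVL2, a WNT signalling adaptor gene, was at -0.20 and AXIN1, a scaffold gene of the complex, at -0.12. Against NT, GSK484 had 6 higher and 7 lower on the list (median -0.05), and CON had 7 higher and 9 lower (median 0.02). All measured genes gave 27.1% and 29.8% for GSK484, and 35.3% and 29.6% for CON.

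In CPM, NPM1 varied least of the 8 genes. It was at 3277 CPM (GSK484), 3211 (CON) and 3226 (NT). Its log2 fold was 0.03 in GSK484 against CON, 0.02 in GSK484 against NT and -0.01 in CON against NT, and 98.4% of measured genes had a wider range over the 3 libraries. At the depth behind NPM1, the difference of 2.04% between GSK484 and CON already lay beyond counting error, which does not include variation between cultures. Net of the trend GSK484 against CON was at 0.12, and by TPM at 0.16, so NPM1 did not vary least on those scales. NPM1 was the 1 gene of the 8 whose counts were not whole. The tables hold 49 NPM1 pseudogene rows, and their summed expected counts were 0.988% of the NPM1 count in GSK484, 0.772% in CON and 0.813% in NT. NPM1P27 alone held 1706 counts (GSK484), 1486 (CON) and 1234 (NT), and how reads were split between it and NPM1 is uncertain.

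Nucleolar genes around NPM1 were also listed. Of 22 measured, 15 were higher and 4 lower beyond counting error in GSK484 against CON, where 26.9% of all measured genes were higher and 27.4% lower, with a median of 0.06, or 0.12 with the trend removed. NOP58, a core protein of box C/D small nucleolar particles, was at 194 CPM (GSK484), 139 (CON) and 193 (NT). CON was its low library (log2 fold of GSK484 against CON 0.47, interval 0.44 to 0.51). DDX21, a nucleolar helicase gene, had 0.30 against CON (0.15 with the trend removed) and -0.29 against NT, so NT was its high library. NOP10 (-0.20) and NHP2 (-0.13), both box H/ACA particle genes, were lowest against CON, but at 0.02 and 0.04 with the trend removed. NPM3, a relative of NPM1, was at 225 TPM (GSK484), 193 (CON) and 186 (NT). It was higher in GSK484 than in CON (0.11) and than in NT (0.24), or 0.29 and 0.10 with the trend removed, and NPM1 had fewer counts per NPM3 count in GSK484 (28.9) than in CON (30.6) and NT (33.6). In GSK484 against NT, 13 of 22 nucleolar genes were higher and 4 lower (median 0.04), where 27.1% and 29.8% of all measured genes were. In CON against NT 8 were higher and 9 lower, where 35.3% and 29.6% of all were. The list median there was -0.02, or -0.10 with the trend removed.

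**Figure D4:**
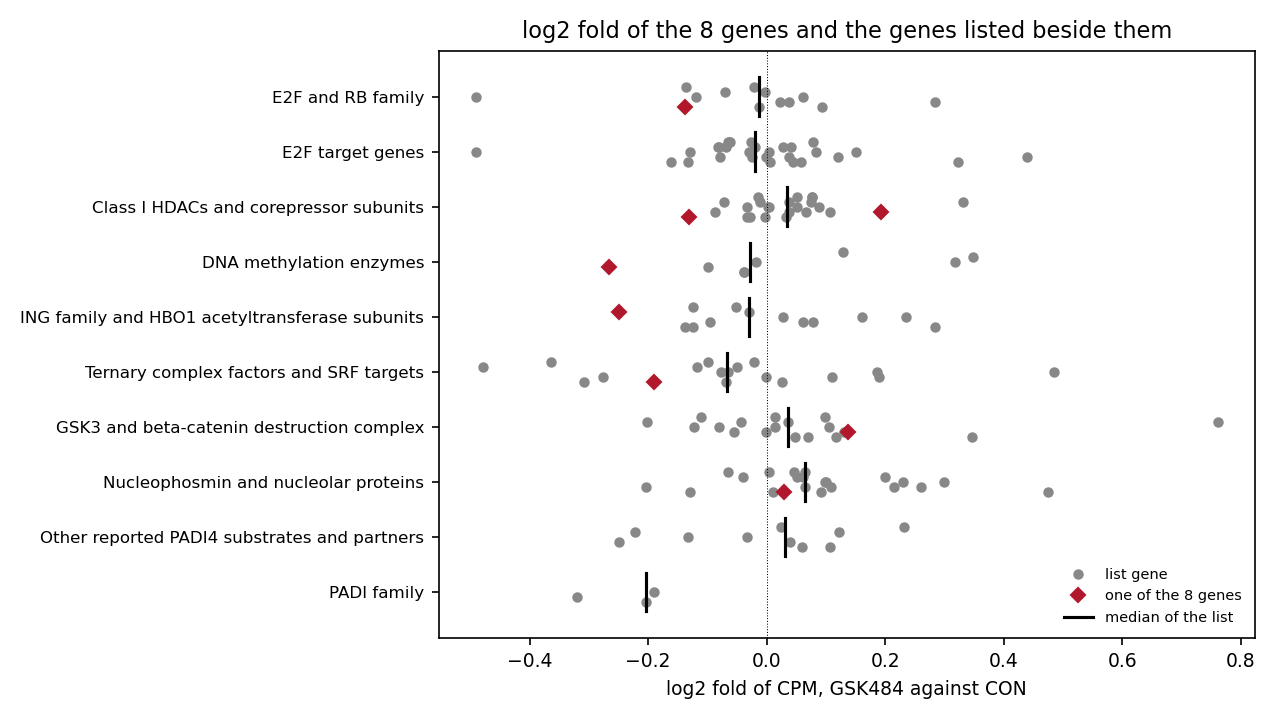
log2 fold of CPM in GSK484 against CON for measured genes of 10 lists, 1 point per gene, with red diamonds for the 8 genes and black bars for list medians. APC, at 0.76, lies farthest right, while list medians other than that of the PADI family lie between -0.07 and 0.06.

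Further reported substrates and partners of PADI4 were also examined. In GSK484 against CON, 5 of 10 measured were higher and 4 lower beyond counting error, with a median of 0.03. All measured genes gave 26.9% higher and 27.4% lower. NFKB1, an NF-kB subunit gene, was higher at 0.12. The linker histone gene H1-2 was at -0.25 against CON, or -0.07 with the trend removed. Of the enzymes, PADI1 (-0.20), PADI2 (-0.32) and PADI3 (-0.19) were all lower in GSK484 than in CON beyond counting error, as 27.4% of measured genes were. In GSK484 against NT their differences were within counting error. In CON against NT all 3 were higher beyond counting error, as 35.3% of measured genes were. Their median there was 0.23, or 0.18 with the trend removed. PADI4 itself was below 1 CPM in each library, with 47 counts (GSK484), 62 (CON) and 47 (NT). Its log2 fold in GSK484 against CON was -0.17, with an interval from -0.75 to 0.40. A difference of that size could not be resolved at this depth. Against NT, 6 of the 10 substrates were higher and 0 lower in GSK484 (median 0.09), where 27.1% of all measured genes were higher and 29.8% lower. In CON against NT, 7 were higher and 1 lower (median 0.13), where 35.3% and 29.6% of all were. With the trend removed these medians were 0.02 and -0.01.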

How the data were processed

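RNA of 3 libraries was sequenced as paired reads of 125 bp from a stranded total RNA kit, per the labels' protocols. The authors deposited 1 gene table per library. The deposited expected counts are estimated reads per gene, not normalized, and the deposited TPM values, named so per the file headers, divide by effective length and add up alike in each library. RSEM and hg19 were used, per the submitters' processing notes. For the aligner, annotation and strand setting, the sources used here give nothing. Effective lengths, named so per the file headers, differed between libraries for some genes, which enters TPM.

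Expected counts were rounded and scaled to CPM with TMM (edgeR 4.0.16, R 4.3.3; factors 1.01 for GSK484, 0.98 for CON and 1.01 for NT). log2 folds used a prior count of 0.5, with exact conditional binomial (Clopper-Pearson) 95% intervals. Genes with at least 1 CPM in either library compared counted as measured. Intervals of paralogue ratios used a normal approximation to counting error. A count of 0 allows up to 3 counts. PCR copies were not separable from molecules. Reads are called divided where a count was not whole within 0.005 in any library. The trend on GC content (GENCODE 29) and effective length was fitted with splines to 8648 protein-coding genes. The procedure was tested on simulated data with counting error alone, which held no variation between cultures and no GC trend. Genes named were the 8, the PADI family, near relatives of the 8, list members past the rule of size and the 2 highest and 2 lowest of each list in GSK484 against CON, except that some are not reported here. The members and the 12 lists were chosen with earlier results of these data known. Of 193 list entries, 5 were not matched and are not analysed here. Alternatives were DESeq2 1.42.0 size factors, total counts, TPM with a pseudocount of 0.1, other minimums, a prior count of 2 and a fold of 1.5.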

Additional observations from a re-analysis of the deposited data

How the results depend on the processing

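No paired analysis was possible because each group had 1 library. Of the alternatives, other minimums of CPM could not change a gene's log2 fold, and a prior count of 2 changed those of the 8 genes very little. Of 24 log2 folds (8 genes in 3 comparisons), 16 kept their sign under every alternative run. The exceptions included HDAC2 in CON against NT (0.02 with the GC and length trend removed), HDAC1 in CON against NT (-0.09 with TPM) and ELK1 in GSK484 against CON (0.05 with TPM). The median over the 8 genes in GSK484 against CON was 0.021 with TPM and -0.051 over the 6 genes of at least 10 CPM. In CON against NT it was -0.077 with TPM. The cause was not tested. Genes past the rule of size numbered 61 in GSK484 against CON, 71 in GSK484 against NT and 221 in CON against NT, an order kept below. They were 203, 238 and 416 with TPM, and 1087, 1051 and 1324 with no minimum CPM. At a minimum of 10 CPM, where fewer genes were tested, they were 4, 9 and 96. Most genes past the rule thus lay below 10 CPM in both libraries compared. At a fold of 1.5 they were 468, 400 and 1080. In CON against NT, 73 passed with the trend removed, 20 higher and 53 lower. The 61 split into 25 higher and 36 lower, against 36 higher and 30 lower with total counts and 111 higher and 92 lower with TPM. DESeq2 size factors, total counts and a prior count of 2 left each of these counts within 1.5 times. DNMT3A and ING4, with 358 to 764 counts, had the widest counting intervals of the 8 genes.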
